A study of Mus musculus with 8 samples.

Results

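Slits, netrins and ephrins are guidance cues, and Robo, Unc5, Dcc and Eph proteins are their receptors. They were examined in astrocytes sorted from the spinal cord of mice with and without the potassium channel Kir4.1. Members were found by matching gene symbols to these families, and 42 of the 39179 identifiers in the count tables matched: 3 Slits, 4 Robos, 6 netrins and netrin-G genes, 5 netrin receptors, 5 ephrin-A and 3 ephrin-B ligands, 9 EphA and 5 EphB receptors. The symbol rule also matched Unc50 and Unc5cl. Unc50 is an unrelated membrane protein gene, and Unc5cl, despite its name, is not a netrin receptor. Of the 42 genes, 27 had enough reads to be tested, among them 26 of the 40 guidance genes proper and Unc50.

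Astrocytes were sorted by the Aldh1l1-GFP reporter from cords of animals aged 12 to 14 days on a mixed Swiss-Webster background. The 4 control libraries (S1, S2, S6 and S7) came from cre-negative animals, labelled wild-type for the genotype and positive for the reporter. The 4 conditional knockout libraries (cKO S3, S4, S5 and S8) came from animals with 2 floxed alleles of Kir4.1, the product of Kcnj10, and Aldh1l1-cre, and carried the reporter too. Deletion followed the Aldh1l1 promoter and so was aimed at astrocytes as a class, and neither the sex of the animals nor whether animals were pooled is given in the labels. The series' design text calls the 4 libraries of a group biological replicates. Values listed for single libraries run in the order S1, S2, S6, S7 for control and S3, S4, S5, S8 for cKO. The study's title sets the comparison in the question of how astrocytic Kir4.1 bears on fast motor neurons and muscle strength.

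Slits are large secreted proteins that repel growing axons through Robo receptors, and cells carrying a Robo respond to Slit from midline or neighbouring cells. Netrins attract axons through Dcc and repel them through Unc5 receptors, whereas the netrin-G proteins are membrane-anchored relatives that bind other partners at synapses. Ephrins are held on the cell surface, so that Eph receptor tyrosine kinases signal only where cells touch, and ephrins can signal back into the cell that bears them. In the brain, ephrin signalling between neurons and astrocytes, with EphA4 among the receptors, is known to act on dendritic spines and on glial glutamate transport.

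Gene reads numbered 13892736 to 22050884 in control and 16521770 to 25065686 in cKO libraries, and 17312 to 20470 genes were detected per library. Kcnj10 fell from 1820 ± 468 CPM, reads scaled to the effective library total (SD, n = 4), to 33.97 ± 4.64 CPM (SD, n = 4), with every cKO library below every control library (log2 fold change −5.74, SE 0.25, edgeR adjusted p = 7.52e-08). Astrocyte markers summed to 17908 to 26593 CPM in control and 21200 to 25779 CPM in cKO, with all 12 genes detected. Of 9 lists of markers of other cell types, all below the astrocyte sum, the neuronal list alone did not overlap between the groups: it summed to 58.1 to 92.3 CPM in control and 35.4 to 56.8 CPM in cKO (exact 2-sided permutation test, p = 0.0286, the smallest that 4 against 4 libraries allow, adjusted p = 0.286 over 10 lists). In RNA pooled over sorted cells, fewer cells of a type and less RNA per cell cannot be told apart.

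The most abundant guidance genes of control astrocytes were compared by FPKM, the deposited unit in which fragments are scaled to transcript length and to sequencing depth. The netrin-G gene Ntng2 was at 18.1 ± 7.03 FPKM (SD, n = 4) and Robo1 at 18.1 ± 2.16. Robo2 followed at 16.9 ± 9.17, Epha4 at 15.6 ± 2.42, Ntn1 at 14.98 ± 6.73 and Epha5 at 12.5 ± 1.59 (SD, n = 4 each). Ephb3 stood at 10.4 ± 0.913 and Efna2 at 10.04 ± 3.42 FPKM. Each of these genes overlapped its neighbour in the order over its 4 columns, so the order is not a ranking beyond the spread. So the leading members were 2 Robos, 2 EphA receptors, 1 EphB receptor, 1 netrin, 1 netrin-G and 1 ephrin, while Unc50, the name match, was higher than all of them at 52.7 ± 23.5 FPKM.

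In the remaining families the most abundant member stood lower. Among Slit ligands, Slit2 led with 5.48 ± 2.68 FPKM in control, among ephrin-B ligands Efnb3 with 7.77 ± 3.58, and among netrin receptors Unc5c with 4.42 ± 4.00 (SD, n = 4 each). Dcc, the attractive netrin receptor, was at 1.21 ± 1.02 FPKM. Each gene's highest column weighed on its mean: without it the mean was 2.49 FPKM for Unc5c and 0.745 FPKM for Dcc. Their second-highest columns stood at 4.01 and 1.34 FPKM. Epha4 lay at the 86.4th percentile of all 39171 identifiers in the FPKM table and Dcc at the 62.6th.

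**Figure D1:**
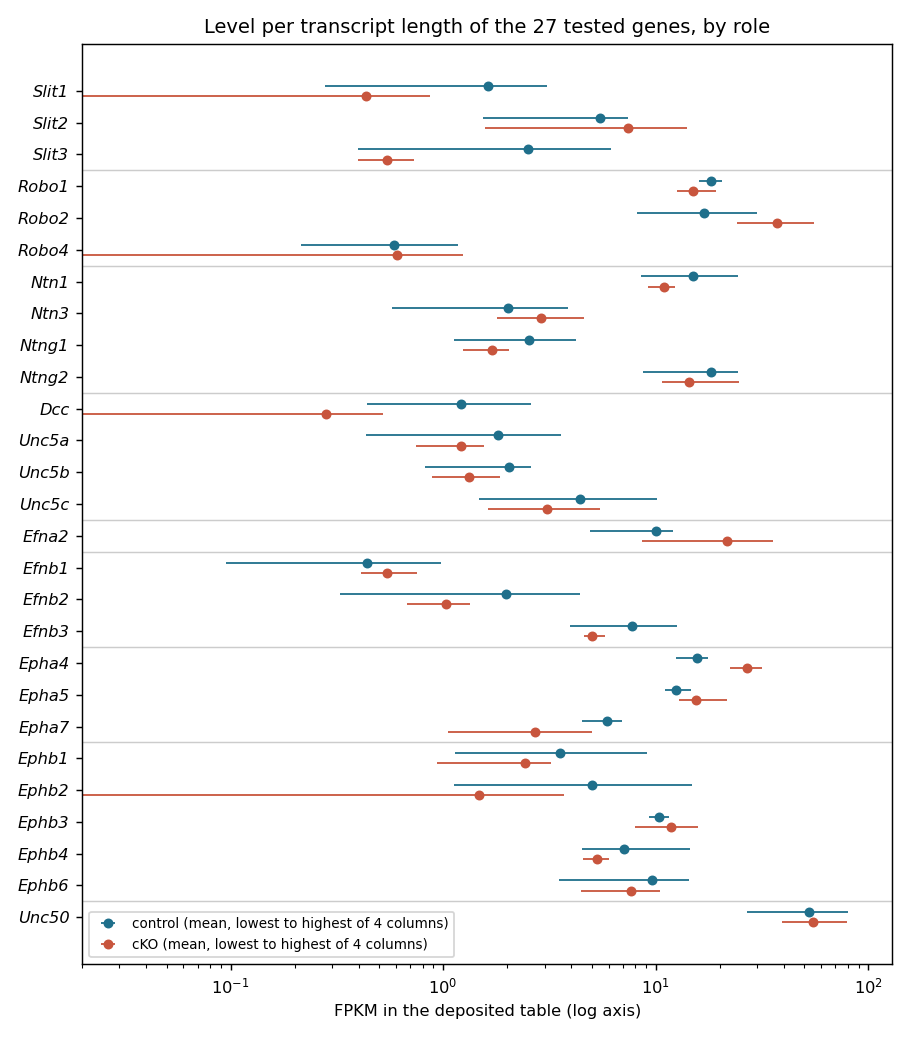
FPKM (log axis) of the 27 tested genes, grouped by role, with the mean of 4 columns as a point and the lowest to highest column as a bar, control in blue and cKO in red. Robo1, Robo2, Ntng2, Ntn1, Epha4 and Epha5 lie at 12.5 to 18.1 FPKM in control. Bars cut at the left edge have a column too low for the axis.

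The 3 members whose groups did not overlap were Epha4, Epha7 and Robo2. Epha4 encodes a promiscuous receptor that binds ephrins of both classes and keeps corticospinal and local spinal axons on their own side of the midline. Epha7 encodes a receptor of ephrin-A ligands with splice forms that lack the kinase. Robo2 encodes a receptor of all Slits. The sequences just upstream of their annotated starts are shown as the promoter context of the 3 genes with the smallest p. They are 250-base RefSeq windows (GRCm38.p6), printed 5′ to 3′ on the gene's strand, for Epha4 on the minus strand at chr1:77515089-77515338, for Epha7 on the plus strand at chr4:28812881-28813130 and for Robo2 on the minus strand at chr16:74411826-74412075. Capitals mark matches on either strand to CCAAT or to TGACG, part of the cyclic AMP response element.
Epha4: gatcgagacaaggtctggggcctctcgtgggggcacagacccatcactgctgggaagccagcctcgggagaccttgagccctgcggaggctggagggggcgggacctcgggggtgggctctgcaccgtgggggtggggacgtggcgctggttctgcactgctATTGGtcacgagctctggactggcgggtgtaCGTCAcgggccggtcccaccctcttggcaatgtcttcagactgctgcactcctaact
Epha7: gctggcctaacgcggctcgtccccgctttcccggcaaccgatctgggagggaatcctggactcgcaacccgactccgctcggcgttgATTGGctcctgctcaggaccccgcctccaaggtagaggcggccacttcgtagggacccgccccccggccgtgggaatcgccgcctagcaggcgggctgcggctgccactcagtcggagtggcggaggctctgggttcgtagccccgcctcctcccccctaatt
Robo2: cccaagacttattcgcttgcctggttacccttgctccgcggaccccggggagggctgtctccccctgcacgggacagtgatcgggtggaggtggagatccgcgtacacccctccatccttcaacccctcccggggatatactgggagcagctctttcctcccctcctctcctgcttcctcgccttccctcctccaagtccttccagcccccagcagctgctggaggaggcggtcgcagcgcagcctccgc

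The Epha4 window held 1 CCAAT and 1 TGACG match, at 88 and 57 bases before the start, and the Epha7 window held 1 CCAAT match at 163 bases. The Robo2 window held neither. Of 32805 windows of the same length, 33.8% held CCAAT and 17.8% held TGACG, and the E-box CACGTG, also searched, was in 6.02% of windows and in none of these 3 printed windows. CpG dinucleotides numbered 14, 25 and 14 in the Epha4, Epha7 and Robo2 windows, against a median of 6 over all windows. An exon of the noncoding gene Gm28386 lies on the other strand of the Epha4 window, and RefSeq lists 2 further starts for Robo2 and 1 further start for Epha7. Of these windows, not printed, 1 of Robo2 held a CACGTG match 18 bases before its start. That of Epha7, at chr4:28812895-28813144, largely overlaps the printed window. It held 2 CCAAT matches, 177 and 8 bases before its start, the first being the site already printed.

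Epha4 was higher in cKO. It stood at 89.8, 87.6, 76.5 and 64.4 CPM in control and at 115, 162, 147 and 128 CPM in cKO. All cKO libraries lay above all control libraries, and the ratio of means was 1.73. The log2 fold change was 0.79 (SE 0.17), and edgeR gave a Benjamini-Hochberg adjusted p of 0.0856 (unadjusted 0.000465), above the threshold of 0.05. Among the alternative fits it passed with library totals (0.0480) and with at least 10 counts in every library (0.0466). DESeq2 on the same counts gave an adjusted p of 0.00256. The gene spans 77367185 to 77515088 on the minus strand of chromosome 1 (GRCm38), and no exon of another annotated gene overlaps its exons.

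Epha7 went the other way. It stood at 22.7, 21.6, 18.6 and 22.4 CPM in control and at 11.2, 5.35, 5.70 and 11.7 CPM in cKO. Controls were closely spaced, with a coefficient of variation of 8.83%, whereas S4 and S5 among the cKO libraries were lower than S3 and S8. The control mean was 2.51 times the cKO mean, and the log2 fold change was −1.32 (SE 0.31). Benjamini-Hochberg adjusted p came to 0.123 in edgeR (unadjusted 0.000993) and 0.00341 in DESeq2. The gene spans 28813131 to 28967499 on chromosome 4, plus strand.

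Robo2 stood at 35.7, 29.9, 22.6 and 45.6 CPM in control and at 48.0, 68.3, 70.8 and 57.5 CPM in cKO. The groups did not overlap, with control S7 and cKO S3 next to each other. The log2 fold change was 0.87 (SE 0.23), and adjusted p came to 0.185 in edgeR (unadjusted 0.00224) and 0.0310 in DESeq2. Robo1, the other abundant Robo, stood at 97.8 to 128 CPM in control and 76.6 to 118 CPM in cKO, groups that overlap. Its log2 fold change was −0.28 (SE 0.18). Robo1 and Robo2 both lie on chromosome 16, from 72308306 to 73046095 on the plus and from 73891839 to 74411825 on the minus strand.

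**Figure D2:**
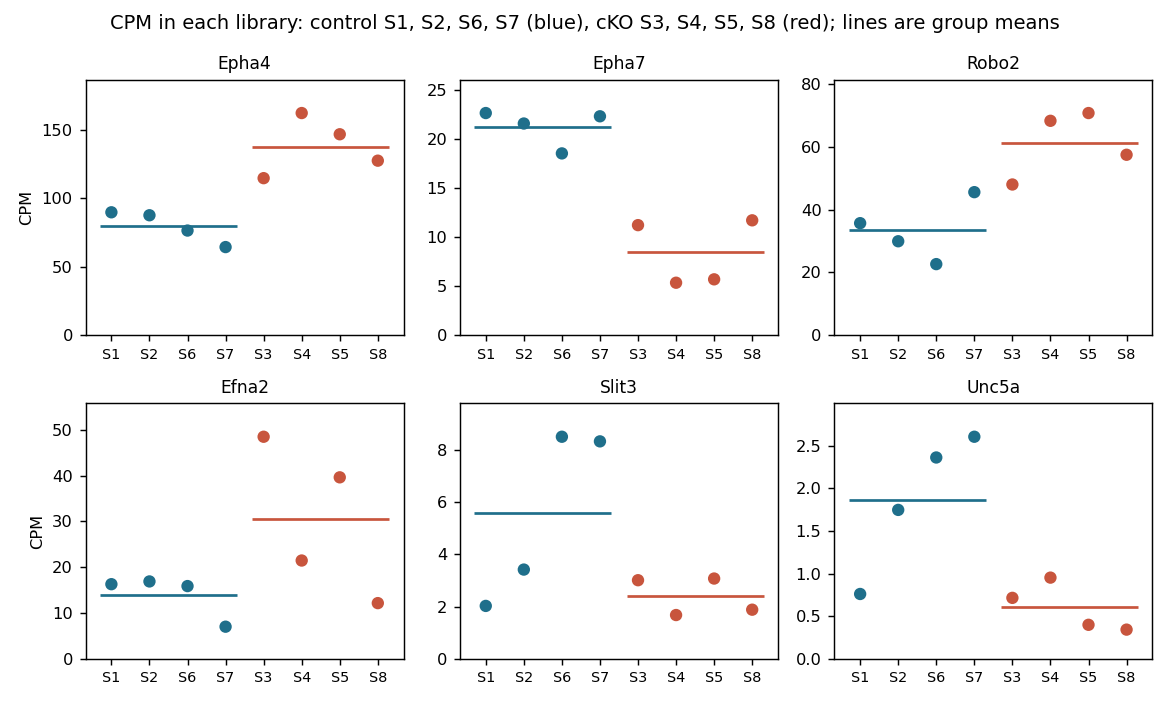
CPM (linear axis from 0) in each library for the 6 genes with an unadjusted p under 0.05, with 1 point per library and a line at each group's mean. Epha4, Epha7 and Robo2 show no overlap between the groups, while Efna2, Slit3 and Unc5a overlap.

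Ratios of 2 genes within a library do not depend on how libraries are scaled against each other. These pairs were chosen after the values were seen and are given without a test. Epha4 counts were 3.96, 4.05, 4.12 and 2.88 times Epha7 counts in control, and 10.2, 30.3, 25.8 and 10.9 times in cKO. Robo2 counts were 0.189 to 0.365 of Robo1 counts in control and 0.627, 0.726, 0.903 and 0.486 in cKO. In both pairs every cKO library lay above every control library. For Epha4 over Epha7 this adds nothing new, since the CPM of the 2 genes already lay apart in opposite directions. For Robo2 over Robo1 it adds little, since Robo2 CPM already lay apart and the Robo1 mean was lower in cKO. These are ratios of counts, not of levels per length.

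**Figure D3:**
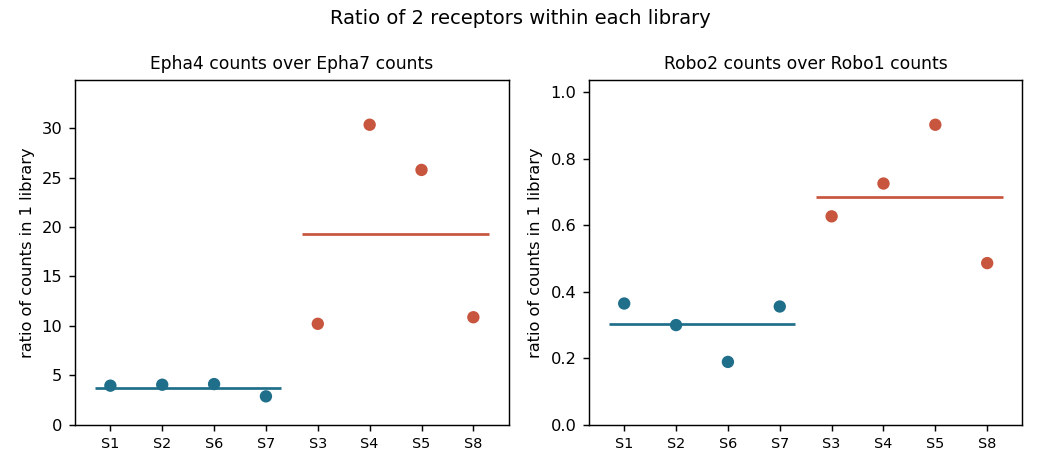
Ratio of raw counts in each library (linear axis from 0) for Epha4 over Epha7 and for Robo2 over Robo1, control in blue and cKO in red, with lines at the group means. The Epha4 to Epha7 ratio averages 3.75 in control and 19.3 in cKO, and the Robo2 to Robo1 ratio 0.302 and 0.685.

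Over the whole set, edgeR's quasi-likelihood test, Benjamini-Hochberg adjusted over 14757 genes, called 0 of 27 tested members at 0.05, against 0.318% of all genes tested. At an unadjusted p under 0.05 there were 6 members, 3 higher (Epha4, Robo2 and Efna2, against 5.03% of all genes tested) and 3 lower (Epha7, Slit3 and Unc5a, against 4.77%). That is 22.2% of the 27, against 9.81% of all genes tested, and is given as a description, since the families were picked with results of these data known. The count depended on the fit. With Xist level as a covariate (no label gives sex) it was 3 of 27, against 1204 of the 14757 genes tested. With 1 library left out it ran from 4 of 30 (without cKO S3) to 9 of 32 (without control S2). Over all genes tested, these fits gave 1488 of 15286 and 1480 of 15439. Groups that did not overlap were found for 3 members, or 11.1%, against 6.34% of all genes tested. DESeq2 called 3 of the 30 members it gave an adjusted p, against 2.49% of all genes, and the authors' deposited table called 3 of 21, against 2.87%. All 3 in each were Epha4, Epha7 and Robo2, with log2 fold changes of 0.75, −1.13 and 0.78 in the authors' deposited table. DESeq2 here gave larger sizes, 0.79, −1.33 and 0.86. For Dcc the gap was wider, −0.80 in the authors' table against −2.06. The 2 sets of fold changes should therefore not be compared in size.

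Of 27 tested members, 17 had a log2 fold change below 0 (63.0%, against 51.6% of all genes tested), and the median was −0.30, against −0.017 for all genes tested. Both values depended on control S7: without it, a setting chosen after seeing the data, 14 of the 27 members were below 0 (51.9%, against 49.2% of the genes tested) and the median was −0.033. Members also spread more, with a median absolute log2 fold change of 0.53 against 0.31. Several had few reads and wide errors, such as SE of 1.02 for Robo4 and Efnb1 and 1.28 for Slit1. The part of low counts in this spread was not tested.

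**Figure D4:**
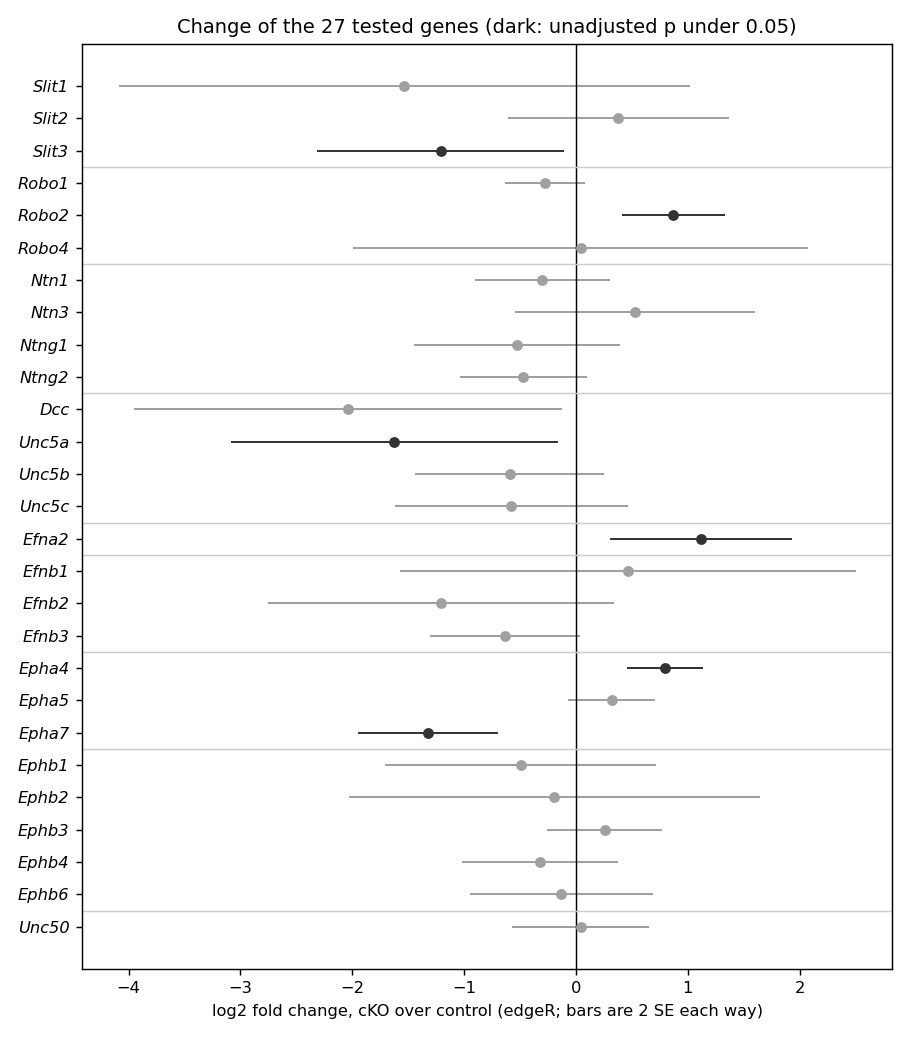
Log2 fold change of cKO over control for the 27 tested genes by role, with bars of 2 standard errors each way and dark points for an unadjusted p under 0.05. Epha4, Robo2 and Efna2 lie to the right of 0, Epha7, Slit3 and Unc5a to the left, and the 4 netrin receptors are left of 0, Unc5c only with control S7 included (0.53 without it).

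Among the Slit ligands, Slit3 had lower values in cKO. It stood at 2.03, 3.42, 8.51 and 8.34 CPM in control and at 3.01, 1.68, 3.08 and 1.88 CPM in cKO. The groups overlap, control S6 and S7 being the high libraries. The log2 fold change of −1.21 (SE 0.55, adjusted p 0.502 by edgeR) became −0.93 without S6 and −0.94 without S7. Slit2 ranged from 4.00 to 7.82 CPM in control and from 2.56 to 12.9 CPM in cKO. Slit1 ranged from 0.655 to 12.3 CPM in control and from 0 to 3.64 CPM in cKO, and its log2 fold change of −1.53 (SE 1.28) became −0.18 without control S7.

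Robo4, a Robo of blood vessels, was at 1.70 ± 1.21 CPM in control and 1.74 ± 1.54 CPM in cKO (SD, n = 4 each). Robo3, which commissural neurons use before they cross the midline, had 3 counts in cKO S8 and 0 in the other 7 libraries.

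Of the 4 tested netrins, 0 passed the edgeR threshold or had an unadjusted p under 0.05. Ntn1, the classical secreted netrin, was at 48.2, 34.1, 42.0 and 101 CPM in control and at 35.4, 42.2, 56.4 and 48.8 CPM in cKO. Its log2 fold change was −0.30 (SE 0.30) and became 0.15 without control S7. Ntng2 ranged from 12.2 to 26.4 CPM in control and 10.4 to 15.3 CPM in cKO, with a log2 fold change of −0.47 (SE 0.28, interval of 2 SE from −1.04 to 0.09). About 14.0% of its exon bases overlap another gene. Ntng1 and Ntn3 had log2 fold changes of −0.53 (SE 0.46) and 0.53 (SE 0.54). Ntn4 averaged 0.463 CPM in control, and Ntn5 had 0 counts in all 8 libraries.

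Of the 4 tested netrin receptors, 0 passed the threshold. All 4 had lower mean levels in cKO, but Unc5c did so only through control S7, without which its log2 fold change turned from −0.58 to 0.53. Unc5a, a repulsive netrin receptor of neurons, was at 0.761, 1.75, 2.36 and 2.61 CPM in control and at 0.715, 0.953, 0.399 and 0.342 CPM in cKO. These groups overlap only through control S1 and cKO S4, at 7 to 55 counts per library. Its log2 fold change was −1.62 (SE 0.73, adjusted p 0.494 by edgeR). Dcc stood at 1.65, 1.60, 6.76 and 10.3 CPM in control and at 2.196, 0.953, 0 and 1.75 CPM in cKO, with a log2 fold change of −2.04 (SE 0.96, adjusted p 0.516 by edgeR). It was −1.43 without control S7, −1.66 with Xist level as a covariate, −0.69 on log2(FPKM + 1) and −2.69 with limma-voom. Unc5b, also known from blood vessels, had a log2 fold change of −0.59 (SE 0.42). Unc5d averaged 0.629 CPM in control and 0.265 CPM in cKO and was not tested.

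The neuronal marker sum was lower in every cKO library than in any control library, as given above, in the same direction as Dcc and Unc5a. Control S7 had both the highest neuronal sum, 92.3 CPM, and the highest Dcc and Unc5a levels. Within cKO the pattern differed: S5 had the highest neuronal sum, 56.8 CPM, with Dcc at 0 and Unc5a at 0.399 CPM. The part of the neuronal RNA in these differences was not tested.

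Among the ephrin-A ligands, Efna2 alone was abundant enough for the main edgeR test. It stood at 16.3, 16.9, 15.9 and 7.01 CPM in control and at 48.5, 21.5, 39.6 and 12.2 CPM in cKO. S3 and S5 were the high cKO libraries, while S8 lay within the control range. The ratio of means was 2.17, and the log2 fold change was 1.12 (SE 0.41, adjusted p 0.370 by edgeR). With Xist level as a covariate, since no label gives sex, the log2 fold change was 0.73.

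Efna4, another ephrin-A ligand, is named for its counts although it had too few reads for the main edgeR test. DESeq2 gave it a log2 fold change of 3.40, with an adjusted p of 0.0520, above the threshold. In the 5 edgeR fits with 1 library left out that kept Efna4, adjusted p ranged from 0.334 to 0.459. Efna4 had 6, 2, 3 and 0 counts in control and 20, 67, 49 and 7 counts in cKO. With so few control reads, it entered the fits with 1 library left out only through its cKO reads. Their adjusted p is therefore no independent check of the difference. Only cKO S8 lay near the controls on either scale, at 0.2996 CPM against at most 0.380 CPM. About 10.5% of its exon bases overlap 4731419I09Rik on the other strand, and strand use in counting is not stated. Its cluster neighbours on chromosome 3, Efna1 and Efna3, had at most 10 and 5 counts in any library, and Efna5 at most 38.

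Of the ephrin-B ligands, Efnb3 had the highest level, 16.4, 8.95, 17.0 and 29.6 CPM in control and 10.3, 11.2, 11.3 and 13.5 CPM in cKO. The cKO libraries were close to each other and lay between control S2 and S1. The log2 fold change was −0.64 (SE 0.33, adjusted p 0.561 by edgeR). Efnb2, which marks arterial endothelium, was at 1.08 and 1.53 CPM in control S1 and S2 but at 14.6 and 9.05 CPM in S6 and S7, and at 0.907 to 4.34 CPM in cKO. Efnb1 was at most 2.25 CPM in any library. The endothelial marker sum was 67.6, 48.2, 73.6 and 44.3 CPM in control and ranged from 24.3 to 57.6 CPM in cKO. Its order over the control libraries differed from that of Efnb2, with S7 lowest. The part of endothelial RNA in the Efnb2 values was not tested.

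The remaining tested EphA receptor, Epha5, ranged from 31.6 to 41.5 CPM in control and from 38.6 to 57.1 CPM in cKO. Its log2 fold change was 0.32 (SE 0.20, interval of 2 SE from −0.07 to 0.71). The other 6 EphA receptors were not tested. Epha1, Epha10, Epha2, Epha3, Epha6 and Epha8 averaged between 0.0275 CPM (Epha8) and 1.22 CPM (Epha1) in control, with most of the Epha1 reads in control S7.

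The EphB receptors, which mostly bind ephrin-B ligands, had 0 of 5 past the edgeR threshold and 0 at an unadjusted p under 0.05. Ephb3 stood at 30.3 to 35.3 CPM in control and at 24.7, 52.3, 47.9 and 26.97 CPM in cKO, a split within cKO that the control libraries do not show. Its log2 fold change was 0.25 (SE 0.26). Ephb6, whose kinase is inactive, and Ephb2 had log2 fold changes of −0.13 (SE 0.41) and −0.20 (SE 0.92). Ephb2 ran from 0.114 CPM in cKO S5 to 10.96 CPM in cKO S8.

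Control S7 stood apart from the other controls for several receptors. Unc5c was at 9.25, 7.57 and 9.45 CPM in control S1, S2 and S6 and at 48.6 CPM in S7, against 14.9, 12.2, 10.1 and 13.1 CPM in cKO. Ephb4, the receptor of venous endothelium, was at 13.5 to 15.9 CPM in the other controls and 40.9 CPM in S7, and Ephb1 at 3.93 to 7.31 and 32.5 CPM. The endothelial marker sum was lowest in S7 among the controls, at 44.3 CPM. Without control S7 the log2 fold change of Unc5c went from −0.58 to 0.53, of Ephb4 from −0.32 to 0.22 and of Ephb1 from −0.50 to 0.65. Of the 27 tested members, 12 were highest in S7 among the controls, against 30.4% of all genes tested.

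Markers of the oligodendrocyte lineage were also highest in control S7. Markers of oligodendrocyte precursors (OPC) summed to 827, 626 and 1024 CPM in control S1, S2 and S6, 1615 CPM in S7 and 693 to 851 CPM in cKO, and 6 of the 8 genes were highest in S7 among controls. Oligodendrocyte markers summed to 1480 to 2376 CPM in the other controls, 2950 CPM in S7 and 983 to 2413 CPM in cKO, with 7 of 10 genes highest in S7. The part of these cells in the S7 values of Unc5c, Ephb1, Ephb4 and Ntn1 was not tested.

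**Figure D5:**
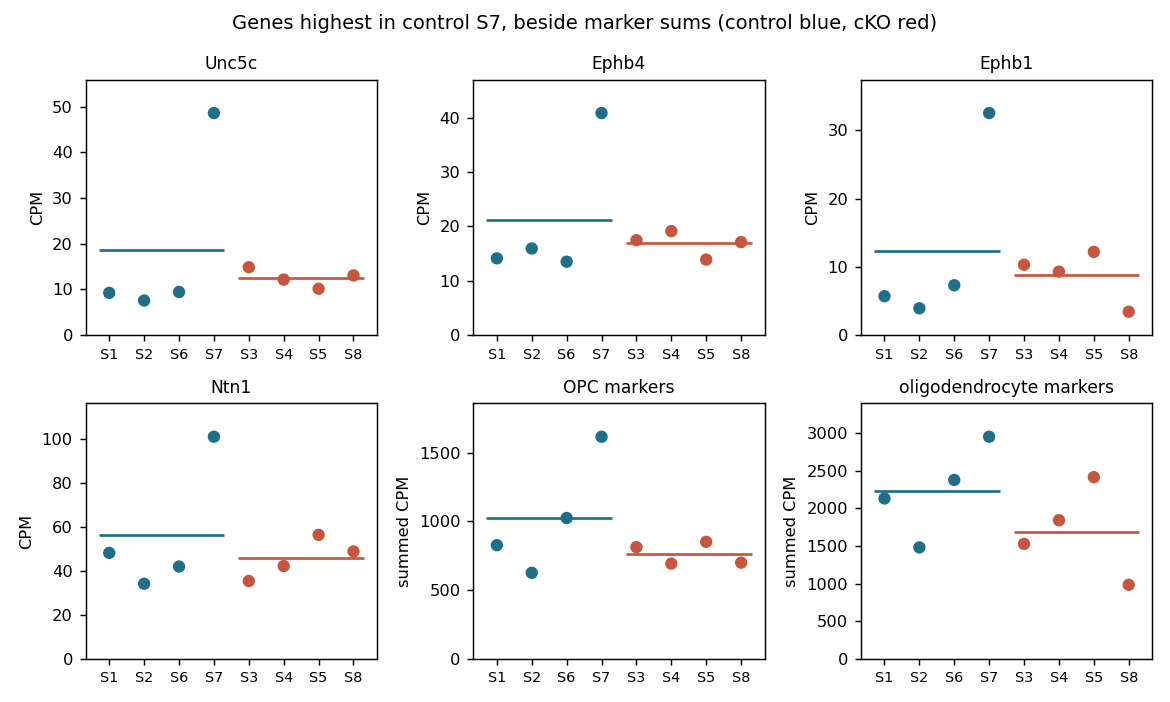
CPM of Unc5c, Ephb4, Ephb1 and Ntn1 and summed CPM of OPC and oligodendrocyte markers in each library (linear axes from 0), control in blue and cKO in red, with lines at group means. In all 6 panels control S7 is the highest library, at 48.6, 40.9, 32.5 and 101 CPM for the genes and 1615 and 2950 CPM for the marker sums.

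Further genes of these pathways were followed through a list of 62 partners: co-receptors and other ligands, and cytoplasmic effectors. Of the 60 tested, edgeR called 0, and 10 had an unadjusted p under 0.05 (16.7%), 4 higher and 6 lower, where 0.318% and 9.81% of all genes tested passed these limits. Groups did not overlap for 6 (10.0%, against 6.34% of all genes tested). DESeq2 called 1 of 60, Cables1 (1.67%, against 2.49% of all genes). The median log2 fold change was 0.040. Cables1, an adaptor that links Robo to Abl kinase and cadherins, was at 42.7, 36.6, 31.1 and 58.5 CPM in control and at 18.4, 20.5, 14.99 and 21.4 CPM in cKO, without overlap. Its log2 fold change was −1.16 (SE 0.24), with an adjusted p of 0.0742 by edgeR and 0.000601 by DESeq2.

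The partners that followed by p were Dscam, a co-receptor of netrin (log2 fold change −1.45, SE 0.48), Grip1, a scaffold that binds ephrin-B tails (0.72, SE 0.24), Trim9, a ubiquitin ligase that binds Dcc (0.36, SE 0.14), and Inppl1, a lipid phosphatase that binds Eph receptors (−0.41, SE 0.16). Dag1, or dystroglycan, which binds Slit in the basement membrane, had 0.42 (SE 0.17), Rgmb, a ligand of the netrin receptor neogenin, −0.92 (SE 0.39), and Anks1, an adaptor of Eph receptors, −0.42 (SE 0.19). Their adjusted p from edgeR ranged from 0.311 to 0.491. Trim9 was at 811 ± 60.6 CPM in control and 1038 ± 37.9 CPM in cKO (SD, n = 4 each), with every cKO library above every control library. Dscam was highest in control S7, at 45.0 CPM, as Unc5c and Ephb1 were.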

How the data were processed

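The counts are whole-number reads per Ensembl gene for 8 libraries, deposited by the authors. The submitters' processing notes name GRCm38, TopHat2 2.0.11, Bowtie2 2.2.3, HTSeq 0.6.1p1, DESeq2 1.14.1 and Cufflinks 2.2.1 with Cuffnorm. The annotation release and strand setting are not given in the sources used here. Lines naming no gene held 56.4% to 61.7% of reads and were left out. The authors also deposited FPKM values. Only 3 of 8 FPKM columns followed the count library of the same name, though all 8 matched a library of their own group (13895 genes), so FPKM served only as group values. The authors' deposited table gives means of scaled counts (a signal), a log2 fold change, its error and Wald statistic (scores), and p-values, per the file headers.

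Counts were tested with edgeR 4.0.16 (TMM, filterByExpr, quasi-likelihood, no covariate, Benjamini-Hochberg over 14757 genes, threshold 0.05). CPM use TMM-adjusted library sizes, and standard errors come from the F statistic. DESeq2 1.42.0, limma 3.58.1 and R 4.3.3 were used for alternatives, Python 3.11.15 and matplotlib 3.10.9 for tables and figures, and GENCODE M21 for coordinates, which held 41 of the 42 genes. The fitting scripts were tested on simulated data. The spread between replicates (biological coefficient of variation 0.473) and low counts set the precision. Genes were given in full if their unadjusted p was under 0.05 or their groups did not overlap. Levels were given for the most abundant of each role or at 10 FPKM or more, and up to 8 partners were named by p. The members and lists were chosen with earlier results of these data known.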

Additional observations from a re-analysis of the deposited data

Results flagged for a closer look

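One library lay far from its 3 fellow replicates in 8 of 54 sets of 4 libraries examined (27 genes, control and cKO). For independent sets of normally distributed values the cutoff used would give about 1 in 20, or 2.7. CPM need not be normal, the sets share libraries, and the share over all genes was not examined. No excess particular to these genes is therefore shown. Of the 8, 5 concerned control S7, which was highest for Unc5c (48.6 CPM), Ephb4 (40.9 CPM), Ephb1 (32.5 CPM) and Slit1 (12.3 CPM, against 0.655 to 2.64 CPM in the other controls) and lowest for Efna2 (7.01 CPM, against 15.9 to 16.9 CPM). Without control S7 the log2 fold change of Efna2 was 0.90.

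In control S1, Ephb3 was at 35.3 CPM, against 30.3 to 31.0 CPM in the other controls. In control S2, Unc5b was at 3.42 CPM, against 9.99 to 11.1 CPM, and its log2 fold change went from −0.59 to −0.86 without it. In cKO S8, Epha5 was at 57.1 CPM, against 38.6 to 40.9 CPM in the other cKO libraries, and its log2 fold change went from 0.32 to 0.17 without it.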

How the results depend on the processing

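The 6 genes given in full kept their direction in all 101 fits run on them. These genes were picked by p in the same 8 libraries, so a stable direction is no independent check. Size did move: Unc5a went from −1.62 to −0.24 on log2(FPKM + 1) and −0.28 on log2(FPKM + 0.1). The number of members past the threshold was 0 in the main edgeR fit, 1 with library totals and 1 with at least 10 counts in every library (Epha4 in both), 3 with DESeq2, and 0 to 0 when any 1 of the 8 libraries was omitted. Pathway partners went from 0 to 1 (Cables1) with at least 1 count in any library, with at least 10 counts in every library and with DESeq2, and stayed at 0 to 0 without 1 library. Library totals moved the median log2 fold change of all genes from −0.017 to 0.091. For all genes, the count of 47 (30 higher, 17 lower) became 62 with library totals (48 higher, 14 lower), 87 and 84 with the looser and stricter count filters, 384 with DESeq2, 28 with Xist as a covariate, 11 and 18 on log2(FPKM + 1) and log2(FPKM + 0.1), and 4 (without cKO S4) to 45 (without cKO S3) when 1 library was left out, with 14, 16 and 30 without control S2, S6 and S1 and 24 and 28 without cKO S5 and S8. Non-overlapping marker lists numbered 1, and 1 to 2 with 1 library left out, fibroblast, mural and endothelial joining without control S1, control S7 and cKO S3.

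Among the other members, 8 changed sign in at least 1 fit, none of them past the threshold, and the cause was not tested. With 1 library left out, log2 fold changes ranged from −0.48 to 0.15 for Ntn1, −0.84 to 0.53 for Unc5c, −0.79 to 0.65 for Ephb1, −0.49 to 0.22 for Ephb4, −0.39 to 0.068 for Ephb6, −1.21 to 0.35 for Ephb2, −0.55 to 0.60 for Robo4 and −0.17 to 0.29 for Unc50. Ephb6 was at 0.020 with library totals, Ephb2 at 0.14 and Unc50 at −0.053 with Xist as a covariate, and Robo4 at −0.82 with limma-voom and −0.012 and −0.30 on the FPKM scales. No paired analysis was possible because control and cKO share no replicate number. Members with few reads had wide errors, with SE of 0.73, 0.96 and 1.28 on the log2 scale for Unc5a, Dcc and Slit1.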
